A study of Mus musculus with 18 samples.

Results

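The collagen genes described here are the 44 protein-coding genes of the count table whose symbol names a collagen chain, that is Col, a type number, a and a chain number. They were picked by name alone, with no measured value, out of 51912 genes in the table. All 44 had at least 10 read pairs over the 18 libraries and so were among the 24495 genes that were tested, of which 17056 are protein-coding. Of the 44 genes, 22 had a mean of at least 5 CPM (the read count scaled to the adjusted size of its library) and 15 had a mean below 1 CPM.

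The libraries came from primary astrocyte cultures grown from the cortex of mice at postnatal day 0, with as many male as female cortices. All cultures, controls included, carried the hemizygous transgene Tg(Aldh1l1-EGFP/Rpl10a)JD130Htz on a B6;FVB background, in which the promoter of *Aldh1l1*, a gene used to mark astrocytes, drives the ribosomal protein RPL10A fused to EGFP. In translating RNA affinity purification (TRAP), antibodies to EGFP pull down tagged ribosomes with the RNA bound to them. That RNA is the IP fraction, and RNA from a small part of the cleared lysate is the input fraction, which holds the RNA of all cells in the dish. The cultures grew for 14 days, were moved to dishes for 6 days and were kept in serum-free medium for 24 h. They then spent another 24 h in serum-free medium with 50 mM ethanol or without it, in sealed chambers. The IP fraction was sequenced from 6 control and 6 ethanol dishes, and the input fraction from 3 of the control and 3 of the ethanol dishes, replicates 4 to 6 of each. Libraries of the 2 fractions that share treatment and number are from a single dish. Nothing in the labels ties a dish to a separate litter or culture, so p-values speak for dishes only. The edgeR fits used below pool the spread between dishes over genes. For ethanol in input, with 3 dishes a group, this pooled spread set the p-values, and a gene's own spread can be larger.

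Collagens are secreted proteins in which 3 chains wind into a triple helix, and several types are made of chains from different genes that must be made together. Fibrillar types (I, II, III, V and XI) build the fibrils of connective tissue, type IV builds the network of basement membranes, and other types link, bead or anchor these structures or span the cell membrane. In the brain, fibrillar collagen is known mainly from the meninges and the walls of vessels, while type IV collagen lies in the basement membrane that astrocyte endfeet share with vessels. Chains are hydroxylated, folded and assembled in the endoplasmic reticulum and are trimmed and cross-linked outside the cell.

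The messages for the chains of type I collagen carry a conserved sequence around their start codon, known as the 5′ stem-loop and as the binding site of LARP6, a protein that regulates collagen synthesis. It is shown here because these are the partner chains that the IP and input fractions divided most unequally. Each line gives 30 bases of GRCm38 on the plus strand from 14 bases before the start codon, which is in capitals, in the exon that holds the end of the 5′ UTR and the start of the coding sequence.
Col1a1 (chr11:94936355-94936384): tctagggtctagacATGttcagctttgtgg
Col1a2 (chr6:4505826-4505855): tctaagtggtagacATGctcagctttgtgg
*Col1a1* and *Col1a2* have the same base at 25 of 30 positions.

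The libraries held 74239854 to 132810705 read pairs that lay on genes. Pairs that mapped to several places made up 4.56% to 4.77% of input and 2.95% to 3.19% of IP libraries, and their part in the differences between fractions was not tested. IP libraries held more of the astrocyte markers than input libraries: *Aldh1l1* averaged 181 ± 9.87 CPM in input (SD, n = 6) and 375 ± 14.9 CPM in IP (SD, n = 12), and 8 of 11 astrocyte markers were higher and 1 lower in IP. *Gfap* (0.78 on the log2 scale) and *Slc1a3* (0.60) were among those higher. In cultures that hold several cell types, fewer cells of a type and less RNA per cell cannot be told apart, in either fraction. The IP fraction holds RNA on tagged ribosomes, and RNA of untagged cells and RNA off the ribosomes of tagged cells cannot be told apart either.

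The first comparison asked how collagen messages divide between ribosome-bound RNA of the tagged cells and the RNA of the whole dish. In edgeR's quasi-likelihood fit to all 18 libraries, 21 of the 44 collagen genes were higher in IP and 12 lower at an adjusted p under 0.05, and 11 did not pass. Over all genes tested 51.0% passed, 25.2% higher and 25.8% lower, against 75% of the collagen genes. That background holds many genes of low level. With edgeR's own expression filter, which drops such genes, 19 of 39 collagen genes were higher and 12 lower, where 12012 of 17655 genes passed. Against a fold of 1.2, 11 collagen genes were higher (7.80% of all genes) and 9 lower (12.4%). The median log2 change of the collagen genes was 0.10 (all genes tested, -0.03). Values of IP and input libraries did not overlap for 22 of the 44 genes, against 25.0% of all genes. All 44 genes together summed to 3378 ± 60.8 CPM in input (SD, n = 6) and 4231 ± 125 CPM in IP (SD, n = 12). *Col1a1* and *Col3a1*, set together after their values were seen, summed to 150.4 ± 1.76 CPM in input and 48.7 ± 3.27 CPM in IP. The summed collagen level thus was higher in IP although these 2 chains were lower.

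**Figure D1:**
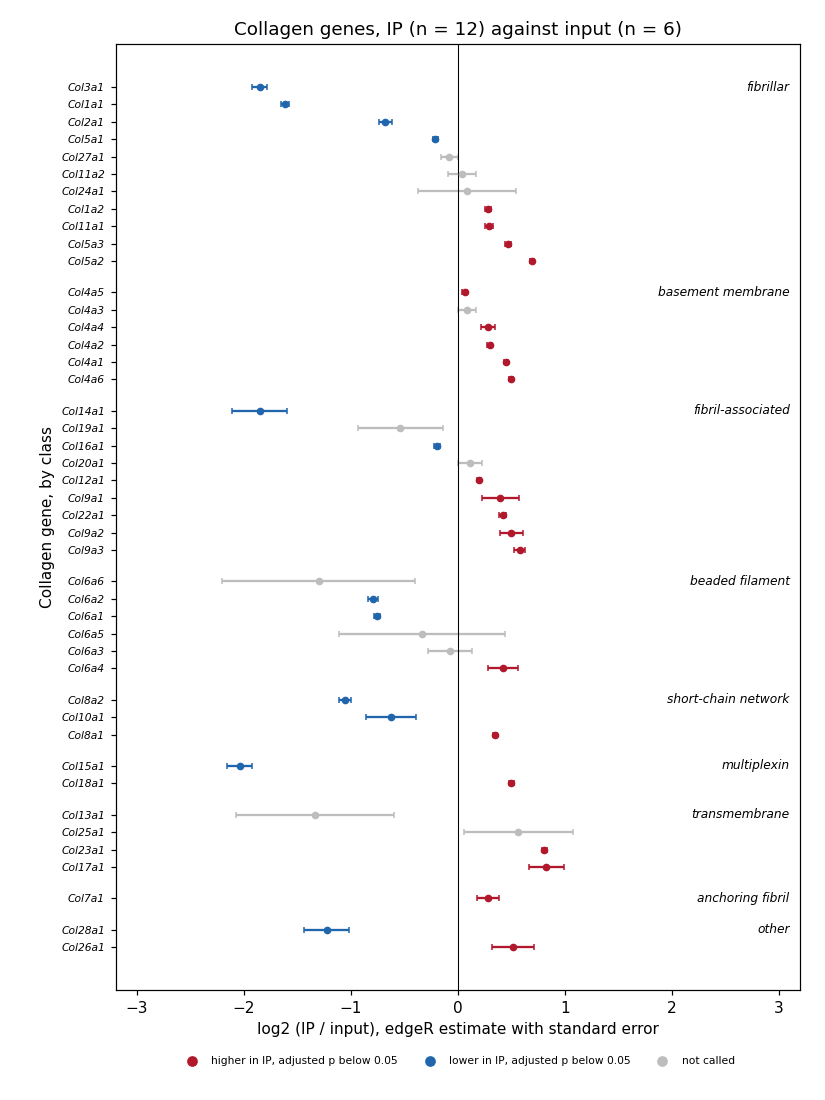
Log2 ratio of IP to input for each of the 44 collagen genes, grouped by class. Points are edgeR estimates and bars are standard errors over 12 IP and 6 input libraries. The 21 red genes were higher and the 12 blue genes lower in IP, and 6 of the 9 classes hold both a red and a blue gene.

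The 2 chains of type I collagen went in opposite directions. *Col1a1* (ENSMUSG00000001506, chr11:94936224-94953042, plus strand) had 143, 142 and 144 CPM in input control libraries and 145.6, 142 and 141 CPM in input ethanol libraries. In IP it ranged from 42.04 to 50.9 with a median of 45.1 CPM in control and from 41.4 to 51.0 with a median of 48.6 CPM in ethanol libraries. Every IP library thus lay below every input library, and the fit gave a 3.07-fold lower level in IP (log2 -1.62, SE 0.039, adjusted p = 2.84e-17). *Col1a2* (ENSMUSG00000029661, chr6:4504814-4541544, plus strand), its partner, had 43.8, 44.9 and 46.4 CPM in input control and 41.8, 43.0 and 49.2 CPM in input ethanol libraries. In IP it ranged from 50.9 to 57.6 with a median of 54.8 CPM in control and from 50.2 to 58.7 with a median of 54.7 CPM in ethanol libraries. All 12 IP libraries were above all 6 input libraries, by 1.22-fold in the fit (log2 0.28, SE 0.031, adjusted p = 4.86e-10).

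Per kilobase of the longest transcript, input held more *Col1a1* than *Col1a2*, 24.1 ± 0.290 and 8.39 ± 0.494 CPM per kilobase (SD, n = 6). In IP the order was turned, with 7.85 ± 0.567 CPM per kilobase of *Col1a1* and 10.2 ± 0.480 of *Col1a2* (SD, n = 12). The ratio of the 2 chains within a library, which does not depend on library scaling, ran from 2.58 to 3.14 in input and from 0.738 to 0.819 in IP. It was 3.74-fold lower in IP (log2 -1.90), by an exact two-sided permutation test of fraction labels within treatments (p = 0.000142, the smallest the 7056 permutations can give, adjusted over 16 pairs 0.000324). In trimers of type I collagen the *Col1a1* chain outnumbers the *Col1a2* chain. In each of the 6 dishes with both fractions the ratio was lower in IP than in input.

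Type III collagen, a homotrimer that mixes with type I in fibrils, followed *Col1a1*. *Col3a1*, named here after its values were seen, had 6.20, 8.48 and 7.19 CPM in input control, 7.39, 8.63 and 7.20 CPM in input ethanol, and 1.77 to 2.89 CPM over the 12 IP libraries (log2 -1.85, SE 0.072, adjusted p = 3.17e-27). The lowest input library lay above the highest IP library. *Larp6*, which encodes the protein known to bind the stem-loop of the type I messages, had 6.74 ± 0.4004 CPM in input (SD, n = 6) and 6.93 ± 0.659 CPM in IP (SD, n = 12), and its difference did not pass the test (log2 0.04, SE 0.049, adjusted p = 0.544). More genes of low level were lower in IP, also named after their values were seen: *Col14a1*, a fibril-associated chain, was lower in IP at log2 -1.85 (SE 0.26, adjusted p = 2.15e-09), and *Col15a1*, a proteoglycan-like chain next to basement membranes, at -2.04 (SE 0.12, adjusted p = 2.12e-25), the lowest value of the 33 genes that passed. Neither gene had an IP library that reached the input range, and both had a mean below 1 CPM over the 18 libraries.

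**Figure D2:**
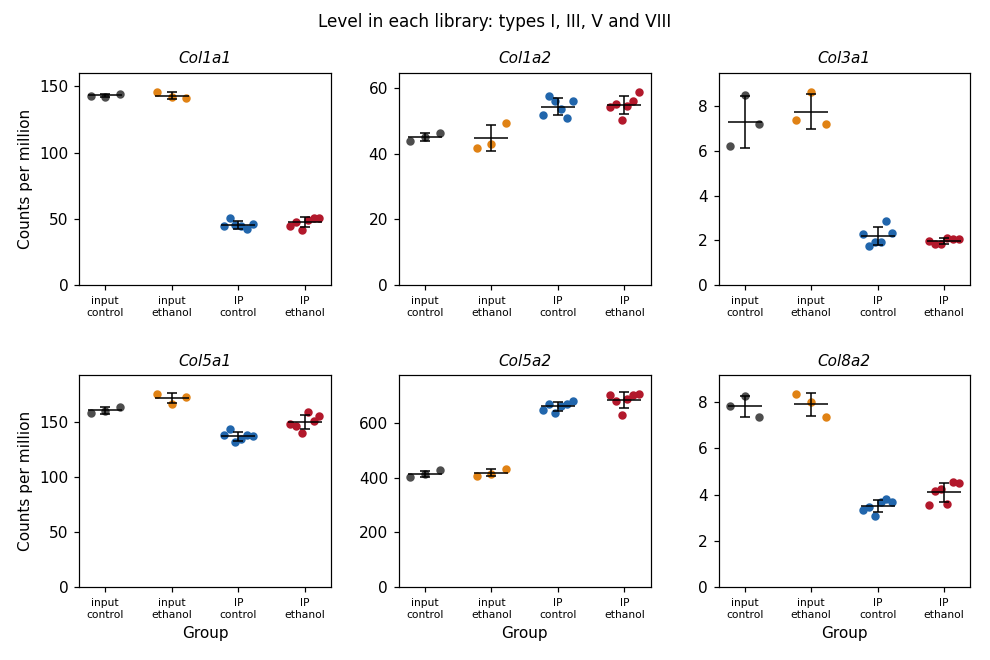
Level in each library, in CPM, of 6 collagen genes in the 4 groups (input n = 3 each, IP n = 6 each), with the mean and SD as lines. *Col1a1*, *Col3a1* and *Col8a2* were lower in every IP library than in any input library, and *Col1a2* and *Col5a2* higher.

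Type V collagen, which starts and thins fibrils, showed the same split between partners at a smaller size. *Col5a2* (ENSMUSG00000026042, chr1:45374321-45503282, minus strand) was among the most abundant collagen messages, at 415 ± 11.5 CPM (SD, n = 6) in input and 671 ± 25.8 CPM (SD, n = 12) in IP, with no overlap (log2 0.69, SE 0.021, adjusted p = 5.2e-41). *Col5a3* was also higher in IP, 26.6 to 29.1 CPM against 35.5 to 43.0 CPM (log2 0.47, SE 0.028, adjusted p = 1.92e-24). *Col5a1*, the chain most type V trimers need, was lower: 158, 160.1 and 163.98 CPM in input control and 176, 166.9 and 173 CPM in input ethanol libraries. In IP it ranged from 132 to 143 with a median of 138 CPM in IP control and from 140.4 to 159 with a median of 149.9 CPM in IP ethanol libraries (log2 -0.21, SE 0.021, adjusted p = 2.09e-14). Within each treatment the IP libraries of *Col5a1* all lay below the input libraries, and over both treatments the ranges met. The ratio of *Col5a1* to *Col5a2* per kilobase was 0.316 ± 0.0133 in input (SD, n = 6) and 0.169 ± 0.00661 in IP (SD, n = 12), 1.87-fold lower (exact permutation p = 0.000142, adjusted 0.000324). That of *Col5a1* to *Col5a3* was 1.60-fold lower and that of *Col5a2* to *Col5a3* 1.17-fold higher in IP, with the same exact permutation p. *Col5a2* lies next to *Col3a1* on chromosome 1, 24614 bases away on the opposite strand, and the 2 neighbours moved in opposite directions between fractions.

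Of the other fibrillar chains, *Col11a1*, a minor fibril chain of cartilage and the partner of type V chains in other tissues, was higher in IP (77.2 ± 4.46 against 94.6 ± 5.42 CPM, log2 0.29, SE 0.037, adjusted p = 6.39e-07). Its partner *Col11a2* was near 1 CPM in both fractions and did not pass (log2 0.04, SE 0.13, adjusted p = 0.84), and the ratio of the 2 chains did not differ beyond its spread (log2 change 0.25, exact permutation p = 0.203). The count of fibrillar genes also took in *Col24a1* and *Col27a1*, which are usually placed in this class. Among all 11, 4 were higher in IP, 4 lower and 3 did not pass, *Col24a1* and *Col27a1* among the last.

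Type IV collagen was the most abundant collagen of the cultures. Its 6 genes lie as 3 pairs that start head to head, each pair sharing one stretch between the starts: *Col4a1* and *Col4a2* on chromosome 8 overlap by 22 bases at their starts, *Col4a3* and *Col4a4* on chromosome 1 lie 71 bases apart, and *Col4a5* and *Col4a6* on chromosome X lie 1308 bases apart. *Col4a1*, the first collagen gene by level per kilobase in both fractions, had 729.9, 713 and 730.3 CPM in input control and 711, 702 and 740.5 CPM in input ethanol libraries. All 12 IP libraries were higher, 948 to 1019 CPM (log2 0.45, SE 0.018, adjusted p = 1.61e-34). *Col4a2*, which joins *Col4a1* in the common trimer, was also higher in IP without overlap, 215 ± 4.37 against 265 ± 9.29 CPM (log2 0.30, SE 0.02, adjusted p = 4.15e-22). The ratio of *Col4a1* to *Col4a2* per kilobase was 3.26 ± 0.0582 in input (SD, n = 6) and 3.64 ± 0.0892 in IP (SD, n = 12), a difference that passed although it was only 1.11-fold (exact permutation p = 0.000142, adjusted 0.000324). Both fractions thus held several *Col4a1* messages for each *Col4a2* message by this measure.

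The X-linked pair differed more. *Col4a6* was higher in IP without overlap, 176 to 209 CPM in input and 238 to 297 CPM in IP (log2 0.50, SE 0.019, adjusted p = 2.98e-35). *Col4a5* had overlapping fractions, 301 to 356 CPM and 294 to 396 CPM, and its small difference (log2 0.07, SE 0.024, adjusted p = 0.0235) did not pass in control libraries alone (0.01, adjusted p = 0.728), with scaling to total counts (0.01, adjusted p = 0.697), with edgeR's own expression filter (0.05, adjusted p = 0.0668), or without input ethanol replicate 4 (0.05, adjusted p = 0.119) or 5 (0.05, adjusted p = 0.104) or IP ethanol replicate 1 (0.06, adjusted p = 0.0566). The ratio of *Col4a5* to *Col4a6* per kilobase fell from 1.73 ± 0.0147 in input (SD, n = 6) to 1.28 ± 0.0563 in IP (SD, n = 12), with no overlap (exact permutation p = 0.000142, adjusted 0.000324). The third pair, known from the basement membranes of kidney and lung, was low: *Col4a4* was higher in IP (10.7 ± 0.663 against 13.0 ± 1.37 CPM, log2 0.28, SE 0.064, adjusted p = 0.00087), and *Col4a3* did not pass (9.74 ± 0.709 against 10.4 ± 1.31 CPM, log2 0.09, SE 0.084, adjusted p = 0.437). In the 6 dishes sequenced as input and IP, with the dish as a block, *Col4a3* was higher too (0.19, adjusted p = 0.000124). The ratio of *Col4a3* to *Col4a4* was 1.14-fold lower and that of *Col4a4* to *Col4a5* 1.16-fold higher in IP (exact permutation, adjusted p = 0.00151 and 0.00142). *Col4a3*, *Col4a4* and *Col4a5* make up one trimer. Reads were counted without regard to strand, and 5.65% of the exon bases of *Col4a3* also lie in a gene on the opposite strand, so part of its count is uncertain.

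*Col4a5* and *Col4a6* also rose together with ethanol, so the 250 bases before their RefSeq starts (GRCm38.p6) are shown (the Ensembl start of *Col4a5* lies slightly earlier), each 5′ to 3′ on its own coding strand with the GC box (GGGCGG or its reverse complement CCGCCC) in capitals.
Col4a5 (chrX:141475169-141475418, plus strand): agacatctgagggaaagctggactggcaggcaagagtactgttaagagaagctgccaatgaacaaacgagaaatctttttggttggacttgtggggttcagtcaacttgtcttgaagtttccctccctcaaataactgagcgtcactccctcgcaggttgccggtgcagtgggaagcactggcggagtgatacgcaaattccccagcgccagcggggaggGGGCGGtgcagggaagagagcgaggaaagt
Col4a6 (chrX:141474077-141474326, minus strand): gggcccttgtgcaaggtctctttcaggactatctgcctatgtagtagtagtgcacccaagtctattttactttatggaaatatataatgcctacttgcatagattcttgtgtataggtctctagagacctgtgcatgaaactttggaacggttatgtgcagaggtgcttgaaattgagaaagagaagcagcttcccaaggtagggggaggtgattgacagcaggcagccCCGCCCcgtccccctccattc
Each window holds 1 GC box, 30 bases before the RefSeq start of *Col4a5* and 21 bases before that of *Col4a6*. By the Ensembl start of *Col4a5*, at 141475385, its box lies just inside the gene and not before it. GC boxes were found on either strand in the same window of 32.74% of 32851 promoters, and in 21 of the 35 collagen genes that have an entry. A CCAAT box (CCAAT or ATTGG) was found for *Col4a5* only, against 33.85% of all promoters, and a TATA box (TATAAA or TTTATA, 12.37%) for neither.

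Type VI collagen, which forms beaded filaments between fibrils and basement membranes, was lower in IP for the 2 chains that were well covered. *Col6a1* had 59.7 to 65.7 CPM in input and 33.6 to 41.8 CPM in IP (log2 -0.76, SE 0.028, adjusted p = 1.21e-31), and *Col6a2* had 9.17 to 10.8 and 5.24 to 6.45 CPM (log2 -0.79, SE 0.047, adjusted p = 9.84e-25). These neighbours on chromosome 10 kept their ratio: *Col6a1* to *Col6a2* per kilobase was 7.38 ± 0.511 in input (SD, n = 6) and 7.54 ± 0.561 in IP (SD, n = 12; log2 change 0.03, exact permutation p = 0.572). *Col6a3*, the third chain of the common trimer, had only 0.313 CPM in input and 0.300 CPM in IP on average and did not pass (log2 -0.08, SE 0.20, adjusted p = 0.798). Relative to it, *Col6a1* and *Col6a2* were 1.62-fold and 1.66-fold lower in IP (exact permutation, adjusted p = 0.00295 and 0.00309), which rests on 18 to 34 read pairs of *Col6a3* per library. *Col6a4* was higher in IP at a mean below 1 CPM (log2 0.43, SE 0.14, adjusted p = 0.00752), but did not pass in control libraries alone (0.27, adjusted p = 0.277), and *Col6a5* and *Col6a6* had at most 10 and 5 read pairs in any library, too few for a ratio.

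Type VIII collagen, a short-chain network of endothelium and cornea, was divided like type I. *Col8a1* was abundant and higher in IP, 334 ± 9.76 against 424 ± 13.9 CPM (log2 0.34, SE 0.02, adjusted p = 2.46e-25). *Col8a2* had 7.83, 8.27 and 7.35 CPM in input control and 8.35, 8.01 and 7.37 CPM in input ethanol libraries, and from 3.09 to 3.83 with a median of 3.58 CPM in IP control and from 3.58 to 4.55 with a median of 4.20 CPM in IP ethanol libraries. All IP libraries of *Col8a2* were below all input libraries (log2 -1.05, SE 0.055, adjusted p = 1.11e-27). Their ratio per kilobase was 36.1 ± 2.86 in input (SD, n = 6) and 95.4 ± 10.2 in IP (SD, n = 12), 2.63-fold higher (exact permutation p = 0.000142, adjusted 0.000324).

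The 3 chains of type IX collagen, a heterotrimer on the surface of fibrils, were all higher in IP: *Col9a3* at 5.94 ± 0.424 against 8.86 ± 0.744 CPM (log2 0.58, SE 0.051, adjusted p = 2.08e-16), *Col9a2* near 1 CPM (log2 0.50, SE 0.11, adjusted p = 6.7e-05), and *Col9a1* near 0.5 CPM (log2 0.40, SE 0.17, adjusted p = 0.0494). The *Col9a1* call is weak. It did not pass when any of 12 single libraries was left out, nor under any other alternative, among them the DESeq2 Wald test (0.40, adjusted p = 0.0616). The 3 ratios of type IX chains did not differ between fractions beyond the spread (log2 changes from -0.14 to -0.06, exact permutation p from 0.475 to 0.8). Of the other chains with at least 5 CPM, the transmembrane *Col23a1* was the most IP-enriched (56.5 to 72.5 against 97.2 to 130.2 CPM, log2 0.81, SE 0.025, adjusted p = 2.42e-37). *Col18a1*, the heparan sulfate chain of basement membranes that yields endostatin, was higher too (332 to 384 against 479 to 521 CPM, log2 0.50, SE 0.019, adjusted p = 1.71e-35), and so were the fibril-associated *Col22a1* (log2 0.42, SE 0.033, adjusted p = 6.1e-19) and *Col12a1* (log2 0.20, SE 0.021, adjusted p = 4.15e-13). *Col16a1*, also fibril-associated, was lower (31.8 ± 1.30 against 27.8 ± 0.813 CPM, log2 -0.19, SE 0.028, adjusted p = 5.46e-09). Of the genes with at least 5 CPM, 15 were higher and 6 lower in IP. The share of all genes of that level that passed was not computed, so these counts have no background beside them. Reads of *Col9a3* are uncertain in part, since 6.07% of its exon bases also lie in *Tcfl5* on the opposite strand. The remaining low genes ranged from -1.33 (*Col13a1*, not passing) to 0.83 (*Col17a1*) apart from those already given.

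**Figure D3:**
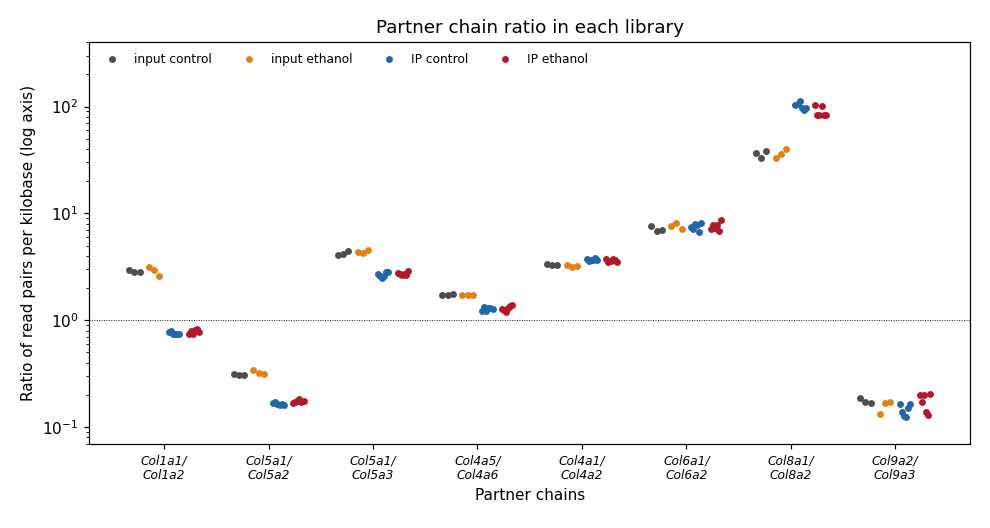
Ratio of the read pairs of partner chains, per kilobase of their longest transcripts, in each library (log axis; input n = 3 and IP n = 6 for each treatment, dotted line at equal levels). *Col1a1* to *Col1a2* lies above 1 in the 6 input libraries and below 1 in the 12 IP libraries, while *Col6a1* to *Col6a2* and *Col9a2* to *Col9a3* overlap between fractions.

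Of the 16 partner pairs with enough reads, 11 had a ratio that differed between fractions, and the same 11 passed when signs were flipped over the 6 dishes that have both fractions (p = 0.03125, the smallest the 64 sign flips can give, adjusted 0.0455, exact). In each of these 11 pairs all 6 dishes went one way. Leaving out any 1 library left 11 pairs passing.

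Markers of other cells moved between the fractions too. Of 12 fibroblast markers, 6 were lower and 3 higher in IP: *Dcn*, which encodes decorin, fell from 23.0 ± 1.57 to 6.28 ± 0.698 CPM (log2 -1.87, SE 0.055, adjusted p = 7.81e-22), *Lum* was below 0.1 CPM in both fractions (log2 -1.55, SE 0.51, adjusted p = 0.0082), and *Pdgfra* was higher (log2 0.26, SE 0.087, adjusted p = 0.00886). The fibroblast list summed to 345 to 354 CPM in input and 362 to 404 CPM in IP, with *Islr* its largest member, so its sum was higher while its median log2 change was -0.20. Of 10 microglia markers, 9 were lower and none higher in IP (median -2.43), with a sum of 149.1 to 172 CPM in input and 67.3 to 81.0 CPM in IP. Among them, *Cx3cr1* was at -2.44 and *Csf1r* at -2.56, and *P2ry12* did not pass (-0.29). Of 10 mural markers, 4 were higher and 3 lower, among them *Rgs5* (0.30), *Acta2* (0.43) and *Pdgfrb* (-0.54), with sums of 996 to 1468 and 1173 to 1883 CPM. Of 9 endothelial markers, *Cldn5* and *Tie1* were below the count minimum, 1 was higher and 4 were lower (*Cdh5* -1.87, *Pecam1* 0.10, not passing), with sums of 12.5 to 15.3 and 13.4 to 15.8 CPM. Of 8 oligodendrocyte lineage markers 3 were higher and 4 lower (*Olig2* 0.59, *Sox10* -1.70, *Mbp* -1.28), and of 6 neuron markers 3 were higher and 1 lower (*Rbfox3* -1.18, *Syt1* 0.35, and *Snap25* at -0.14, not passing). The sums of the last 2 lists were 142 to 153.6 against 199 to 219.8 CPM and 96.9 to 109 against 117 to 138 CPM. The part of fibroblast RNA in the collagen result was not tested.

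Genes whose products make, fold, trim and cross-link collagen were divided as well. Of 35 such genes, 12 were higher in IP, 15 lower and 8 did not pass. The lowest were *Pcolce*, the enhancer of the protease that trims fibrillar procollagen (159 ± 5.79 against 60.0 ± 4.01 CPM, log2 -1.41, SE 0.023, adjusted p = 5.4e-51), and the cross-linking oxidases *Lox* (log2 -0.74, SE 0.053, adjusted p = 2e-09) and *Loxl2* (log2 -0.54, SE 0.022, adjusted p = 4.86e-34). The highest were the procollagen proteases *Adamts14* (log2 0.57, SE 0.03, adjusted p = 3.77e-27) and *Adamts3* (log2 0.51, SE 0.10, adjusted p = 1.01e-05), and *Sparc*, a collagen-binding protein that astrocytes make in large amounts (log2 0.50, SE 0.018, adjusted p = 3.51e-37). Of 10 collagen receptor genes, 5 were higher and 5 lower in IP. The kinase receptors *Ddr2* (0.66) and *Ddr1* (0.65) and the integrin chain *Itga2* (0.21) were the highest, and *Gp6* (-2.92, under 0.1 CPM), *Lair1* (-2.10), an immune cell receptor, and the uptake receptor *Mrc2* (-1.38) the lowest, all on the log2 scale.

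The second comparison asked what 24 h of 50 mM ethanol changed. Its changes in collagen genes were small beside the differences between fractions. In IP (6 against 6 libraries), 8 collagen genes rose and 1 fell by edgeR's quasi-likelihood test at an adjusted p under 0.05. That is 20.5% of the 44 genes, near the 21.4% of all genes tested that passed (11.9% higher and 9.48% lower). In input (3 against 3), 6 rose and 3 fell, again 20.5%, against 15.0% of all genes (7.21% higher and 7.78% lower). With edgeR's own expression filter, 6 of 38 collagen genes rose and 2 fell in input, where 3517 of 17493 genes passed. In IP, 8 of 37 rose and 2 fell with this filter, where 5412 of 16839 genes passed. Of the 44 genes, 7 passed in both fractions and moved the same way in both, against 10.8% of all genes. Ethanol and control libraries did not overlap for 4 collagen genes in IP, all higher with ethanol (5.09% of all genes were apart and higher, 4.87% apart and lower, 9.96% in all), and for 11 in input, 6 higher (14.0% of all genes) and 5 lower (13.1%, and 27.1% in all). The median log2 change of the collagen genes was 0.06 in IP (all genes 0.01) and 0.01 in input (all genes -0.00092). Against a fold of 1.2, 0 of the 44 genes passed in either fraction, where 0.388% of all genes passed in IP and 0.225% in input.

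The X-linked type IV pair rose in both fractions. *Col4a5* (ENSMUSG00000031274, chrX:141475385-141689234, plus strand) had 304, 301 and 309 CPM in input control and 339, 341 and 356 CPM in input ethanol libraries, a log2 change of 0.18 (SE 0.023, adjusted p = 1.03e-12). In IP it ranged from 294 to 320.3 with a median of 311 CPM in control and from 346 to 396 with a median of 372 CPM in ethanol libraries, a change of 0.27 (SE 0.029, adjusted p = 5.82e-09). No ethanol library reached down to a control library of its fraction. *Col4a6* (ENSMUSG00000031273, chrX:141165403-141474076, minus strand) behaved alike: 179.7, 176 and 179 CPM in input control and 201, 202 and 209 CPM in input ethanol libraries (log2 0.19, SE 0.023, adjusted p = 9.92e-14), and in IP from 238 to 258 with a median of 247 CPM in control and from 287 to 297 with a median of 294 CPM in ethanol libraries (log2 0.25, SE 0.023, adjusted p = 5.37e-13). The ratio of the 2 chains did not differ with ethanol beyond its spread (IP log2 change 0.01, exact permutation p = 0.693; input -0.01). The other type IV chains did not pass in either fraction, with log2 changes between -0.03 and 0.06 in IP and between -0.02 and 0.06 in input.

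**Figure D4:**
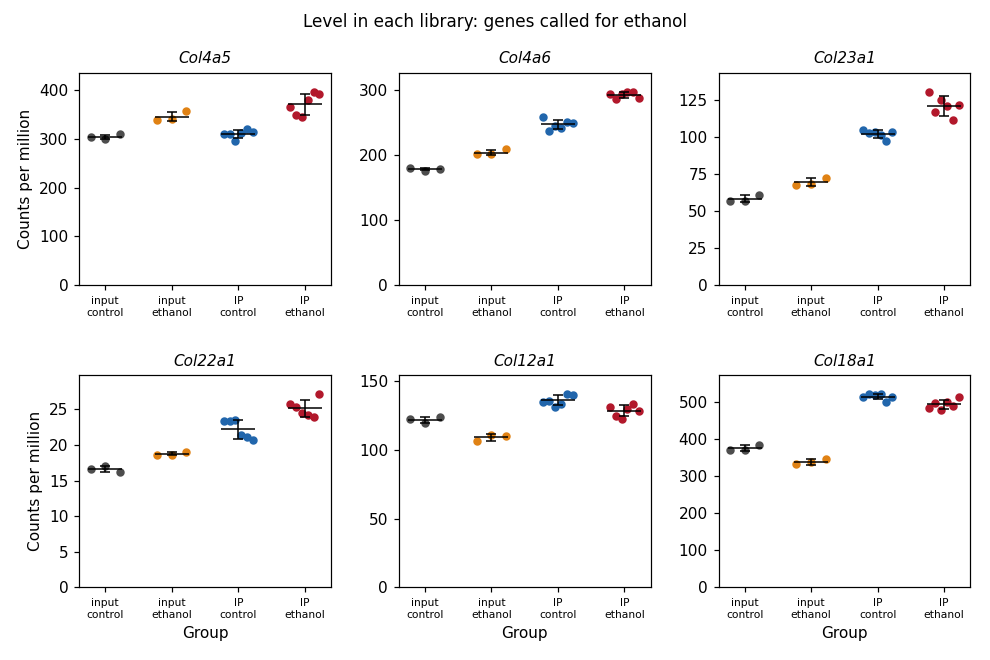
Level in each library, in CPM, of 6 collagen genes that passed the test for ethanol in at least one fraction (input n = 3, IP n = 6 for each treatment), with the mean and SD as lines. Ethanol libraries of *Col4a5*, *Col4a6*, *Col23a1* and *Col22a1* lie above the control libraries of the same fraction, and those of *Col12a1* and *Col18a1* below them in input, with overlap in IP.

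*Col23a1*, the transmembrane chain, rose by a like amount, from 58.2 ± 2.41 to 69.3 ± 2.71 CPM in input (SD, n = 3; log2 0.25, SE 0.03, adjusted p = 2.63e-14) and from 102 ± 2.60 to 121 ± 6.56 CPM in IP (SD, n = 6; log2 0.25, SE 0.028, adjusted p = 1.97e-10), with no overlap in either fraction. *Col22a1*, found at tissue junctions, rose from 16.6 ± 0.450 to 18.8 ± 0.213 CPM in input (log2 0.17, SE 0.052, adjusted p = 0.0101) and from 22.2 ± 1.32 to 25.2 ± 1.204 CPM in IP (log2 0.18, SE 0.038, adjusted p = 0.000163), again with no overlap. *Col5a1* rose in both fractions (log2 0.09, SE 0.023, adjusted p = 0.00151 in input and log2 0.14, SE 0.026, adjusted p = 4.45e-05 in IP), with overlap in IP alone. *Col11a2*, at a level near 1 CPM, had the largest change of the genes that passed: 0.513, 0.910 and 0.906 CPM in input control and 1.39, 1.26 and 1.16 CPM in input ethanol libraries (log2 0.70, SE 0.20, adjusted p = 0.00427), and in IP from 0.690 to 1.09 with a median of 0.841 CPM in control and from 0.737 to 1.58 with a median of 1.22 CPM in ethanol libraries (log2 0.49, SE 0.15, adjusted p = 0.0117). Its groups overlapped in IP and not in input. Without input control replicate 4, *Col11a2* did not pass in input (0.48, adjusted p = 0.134), nor did *Col22a1* without input control replicate 6 (0.15, adjusted p = 0.0778). *Col12a1*, a fibril-associated chain, was the gene that fell in both fractions, from 122 ± 2.04 to 109 ± 2.52 CPM in input (log2 -0.16, SE 0.025, adjusted p = 8.04e-09) and from 136 ± 3.64 to 128 ± 4.06 CPM in IP (log2 -0.08, SE 0.025, adjusted p = 0.0225), where it did not pass without IP control replicate 5 (-0.07, adjusted p = 0.0664).

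In the fits reported above, genes that passed in a single fraction were *Col5a3* and *Col8a2* in IP and *Col18a1* and *Col11a1* in input. *Col5a3* changed by 0.10 (SE 0.033, adjusted p = 0.0199) in IP and had 0.04 (SE 0.042, adjusted p = 0.625) in input, and *Col8a2* changed by 0.22 (SE 0.074, adjusted p = 0.0221) in IP and had 0.01 (SE 0.076, adjusted p = 0.956) in input. *Col18a1* had 371, 370.1 and 384 CPM in input control and 332, 337 and 346 CPM in input ethanol libraries, all lower (log2 -0.15, SE 0.023, adjusted p = 1.18e-09), while in IP its value was -0.05 (SE 0.022, adjusted p = 0.0983). In IP it did pass with the DESeq2 Wald test (-0.06, adjusted p = 0.0107). It also passed there in edgeR with DESeq2 size factors (adjusted p = 0.0459), with edgeR's own expression filter (adjusted p = 0.0271) and without IP ethanol replicate 6 (adjusted p = 0.0305). *Col11a1* fell in input (log2 -0.09, SE 0.028, adjusted p = 0.00997), with overlapping groups, and had -0.05 (SE 0.038, adjusted p = 0.385) in IP. Single libraries decided 3 of these calls. *Col5a3* did not pass without IP control replicate 5 or 6 or IP ethanol replicate 4 (adjusted p = 0.063 to 0.107), *Col8a2* without IP control replicate 1 or 3 or IP ethanol replicate 5 or 6 (adjusted p = 0.0575 to 0.0943), and *Col11a1* without input control replicate 6 or input ethanol replicate 4 (adjusted p = 0.154 to 0.484), nor with the DESeq2 Wald test (adjusted p = 0.125) or edgeR's own expression filter (adjusted p = 0.195). After removal of trends with GC content and length, 5 collagen genes rose (11.5% of all genes) and 5 fell (10.3%) in IP. *Col5a3* was at 0 (-0.00, adjusted p = 0.99), *Col8a2* (0.16, adjusted p = 0.113) and *Col11a2* (0.38, adjusted p = 0.0676) no longer passed, and *Col18a1* fell (-0.14, adjusted p = 1.93e-09), as did *Col11a1*, *Col16a1* and *Col9a3*. *Col4a5*, *Col4a6*, *Col23a1*, *Col22a1*, *Col5a1* and *Col12a1* kept their direction and passed there.

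**Figure D5:**
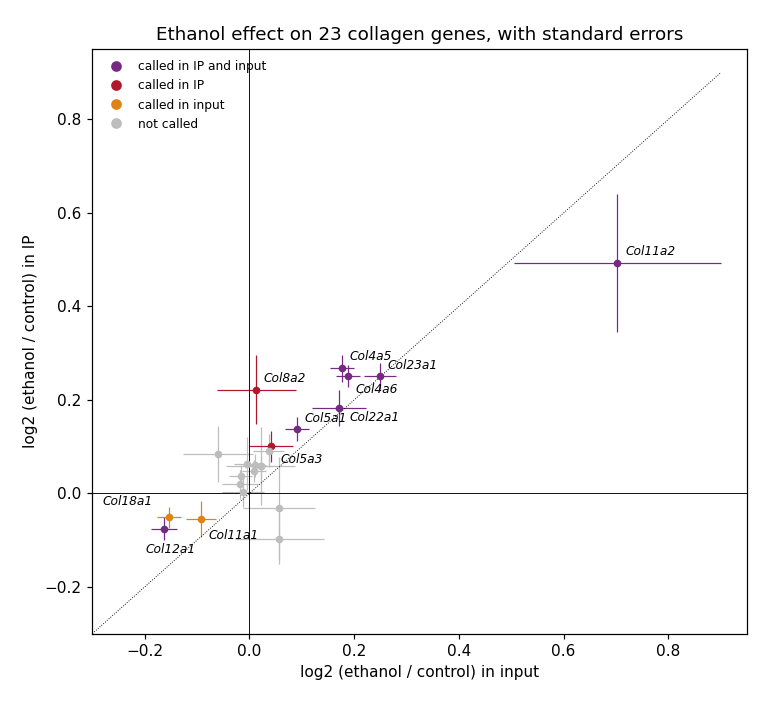
Log2 change with ethanol in input (x axis) and in IP (y axis) of the 23 collagen genes that had at least 5 CPM or passed for ethanol, with standard errors as bars and equal change as a dotted line. The 7 purple genes passed in both fractions, and *Col11a2*, at the upper right, lies apart with the widest bars.

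Several abundant chains of the first comparison did not pass for ethanol. *Col1a1* was at 0.06 (SE 0.056, adjusted p = 0.513) in IP and -0.01 (SE 0.024, adjusted p = 0.933) in input, *Col1a2* at 0.02 and -0.02, *Col5a2* at 0.06 and 0.01, *Col8a1* at 0.05 and 0.01, and *Col6a1* at 0.09 and 0.04 on the log2 scale, and none of them passed. The same holds for *Col6a2* (0.08 and -0.06), *Col9a3* (-0.10 and 0.06) and *Col16a1* (0.0033 and -0.01). *Col1a1* was not the same in all dishes: over IP replicates 4 to 6 alone it rose (0.19, adjusted p = 9.41e-05), and over IP replicates 1 to 3 it was at -0.07, adjusted p = 0.344.

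No partner ratio passed for ethanol in IP by the exact permutation test of 924 label orders, adjusted over 16 pairs. Of the 16 pairs, 4 had an unadjusted p under 0.05, led by *Col4a4* to *Col4a5* (log2 change -0.21, p = 0.00433, adjusted 0.0693), followed by *Col5a1* to *Col5a2* (0.08, p = 0.0108), *Col11a1* to *Col11a2* (-0.53, p = 0.0325) and *Col8a1* to *Col8a2* (-0.18, p = 0.0476), all exact. Without IP control replicate 1, *Col4a4* to *Col4a5* passed (exact, adjusted p = 0.0346). In input the smallest p that 3 against 3 libraries allow is 0.1, so no pair could pass. *Col1a1* to *Col1a2* per kilobase was 0.758 ± 0.0230 without and 0.781 ± 0.0334 with ethanol in IP (SD, n = 6), within the spread (exact permutation p = 0.201).

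Whether ethanol acted differently in the 2 fractions was tested as an interaction. In edgeR's quasi-likelihood fit to all 18 libraries, 0 of the 44 collagen genes and 0 of all 24495 genes (0%) passed, with 1 collagen gene (*Col18a1*, difference 0.09 (SE 0.036, adjusted p = 0.776)) and 1459 of all genes at an unadjusted p under 0.05. DESeq2 called 0 collagen genes and 4 of all genes. With dish as the blocking factor, in the 6 dishes that have both fractions (12 libraries), 3 collagen genes passed. All had a positive difference (IP minus input), as 0.384% of all genes did: *Col1a1* (0.21, adjusted p = 0.00133), *Col4a5* (0.14, adjusted p = 0.0107) and *Col18a1* (0.14, adjusted p = 0.0115). *Col18a1* fell with ethanol, so its positive difference was a smaller fall in IP. The same 12 libraries without the block, a fit chosen after seeing the data, gave the same differences, and of the collagen genes *Col1a1* passed there (0.21, adjusted p = 0.0276), against 0.0531% of all genes, while *Col4a5* (0.14, adjusted p = 0.142) and *Col18a1* (0.14, adjusted p = 0.155) did not. The estimates thus moved with the choice of dishes and not with the block, and for *Col1a1* the choice of dishes alone gave the call. In these dishes the log2 ratio of IP to input of *Col1a1* was -1.68, -1.76 and -1.64 in control and -1.56, -1.48 and -1.47 in ethanol dishes. For *Col4a5* it was 0.04, 0.09 and 0.02 in control and 0.17, 0.22 and 0.14 in ethanol dishes, and for *Col18a1* 0.49, 0.44 and 0.42 and 0.59, 0.54 and 0.57. Control and ethanol dishes did not overlap for the 3 genes. These genes were picked by a fit to the same libraries, so the lack of overlap adds no support. The share of all genes without overlap was not computed. With the block and trends of GC content and length removed, 0 collagen genes passed (*Col1a1* 0.14, adjusted p = 0.113; *Col4a5* 0.11, adjusted p = 0.0935), and over all genes 39 did, 0.114% with a higher and 0.0449% with a lower effect in IP.

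Of the 35 genes for collagen making and assembly, 13 rose and 2 fell with ethanol in IP, and 7 rose and 4 fell in input. The largest rises in IP were those of *Adamts2*, a procollagen protease (log2 0.22, SE 0.064, adjusted p = 0.00693), *Plod1*, a lysyl hydroxylase (log2 0.20, SE 0.028, adjusted p = 8.31e-08), and *Larp6* (log2 0.19, SE 0.057, adjusted p = 0.00901). *Pcolce* (log2 -0.13, SE 0.031, adjusted p = 0.00111) and the prolyl hydroxylase chain *P4ha1* (log2 -0.07, SE 0.023, adjusted p = 0.0273) fell. In input the largest rises were those of *Lox* (log2 0.21, SE 0.025, adjusted p = 1.43e-14), the foldase *Fkbp14* (log2 0.16, SE 0.033, adjusted p = 3.34e-05) and *Plod1* (log2 0.15, SE 0.032, adjusted p = 0.000107), and the largest falls those of *Adamts14* (-0.18), *P3h4* (-0.12) and *Pcolce2* (-0.11). Of the 10 receptor genes, 4 rose and none fell in IP, led by *Itga2* (log2 0.37, SE 0.085, adjusted p = 0.000585), *Mrc2* (log2 0.19, SE 0.054, adjusted p = 0.0095) and *Itga1* (log2 0.09, SE 0.031, adjusted p = 0.0315). In input *Mrc2* and *Itgb1* rose (0.15 and 0.08) and *Ddr2* and *Ddr1* fell (-0.09 and -0.08).

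Markers of other cells moved with ethanol too. Of 10 mural markers, 1 rose and 3 fell in IP and 2 fell in input. Their sum ran from 1747 to 1883 CPM in IP control to 1173 to 1374 CPM in IP ethanol libraries and from 1395 to 1468 to 996 to 1065 CPM in input, with *Acta2* its largest member (-0.56 in IP and -0.59 in input, log2). *Pdgfrb* did not pass (-0.02 in IP and -0.02 in input). Of 12 fibroblast markers, 3 rose in IP and 2 rose and 1 fell in input, with sums of 362 to 394 and 371 to 404 CPM in IP and 345 to 354 and 346 to 354 CPM in input, and *Dcn* did not pass in either (0.02 and 0.10). Of 11 astrocyte markers, 4 rose in IP, and 4 rose and 3 fell in input, with sums of 1799 to 1879.9 CPM without and 1926 to 2000.0 CPM with ethanol in IP and 1167 to 1212 and 1222 to 1247 CPM in input. Of 10 microglia markers, 2 rose in each fraction, and their sum did not overlap between treatments, 67.3 to 72.7 against 74.6 to 81.0 CPM in IP and 149.1 to 156.1 against 162.6 to 172 CPM in input. The neuron sum was lower with ethanol without overlap in both fractions (129 to 138 against 117 to 124 CPM in IP), with 1 of 6 markers falling in each. Of the 7 tested endothelial markers, 2 fell in IP and 1 in input, with sums of 14.7 to 15.8 against 13.4 to 13.9 CPM in IP. Of 8 oligodendrocyte lineage markers, 1 rose in IP and 2 in input, with overlapping sums. Their part in the collagen changes was not tested.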

How the data were processed

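The authors trimmed reads with Trimmomatic, aligned them with STAR to GRCm38 with Ensembl annotation and deposited raw counts of read pairs per gene, without regard to strand, for each of the 18 libraries, with files per library that also give counts by strand (SAMtools is listed too, and the versions are not given in the sources used here). Libraries were made from total RNA with ribosomal RNA depletion and sequenced as pairs. The table and the files per library differed in 0 values. Between 74239854 and 132810705 read pairs per library lay on genes (median 84119135), and 5.50% of pairs on average mapped to overlapping genes. Pairs that mapped to several places made up 4.56% to 4.77% in the 6 input and 2.95% to 3.19% in the 12 IP libraries.

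CPM (counts scaled to TMM library sizes) and log2 changes were computed here. Genes whose read pairs summed to at least 10 over all libraries were fitted together with edgeR 4.0.16 in R 4.3.3 (TMM scaling, quasi-likelihood test, Benjamini-Hochberg adjustment over all genes tested, threshold 0.05). IP against input, ethanol within each fraction and the difference of both ethanol effects were tested, and DESeq2 1.42.0 was run as an alternative. Ratios of partner chains were compared where each chain had at least 10 read pairs in every library, by exact permutation. Levels per kilobase used the longest transcript. The fit was tested on simulated data: of genes changed by log2 0.4 it recovered 100% for IP against input, 96% for ethanol in IP, 93% for ethanol in input and 84% for the difference, and at log2 0.2 it recovered 80%, 74%, 69% and 33%, with 24495 genes in each step. Of its calls in these simulations, 7.69%, 7.61%, 3.57% and 10.7% were false, in the same order, so 3 of the 4 shares lay above the threshold of 5%.

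Input and IP libraries of the same treatment and number come from one dish by the study's methods, and their deviations from group means correlated positively in all 6 dishes (0.03 to 0.21 over 11066 genes). Pairs of input and IP from different dishes ranged from -0.13 to 0.06, so the weakest dish lay within that range. Control and ethanol libraries of one number, which by the sources share nothing else, ranged from -0.15 to 0.42 in IP and from 0.04 to 0.08 in input. The collagen genes as a group, the lists of 35 assembly and 10 receptor genes and the marker lists (astrocyte, fibroblast, mural, endothelial, microglia, oligodendrocyte lineage and neuron) were chosen with earlier results of these data known. Which genes belong to the collagen group was set by the match of names alone. *Mia2* of the assembly list stands in the table as *Ctage5*. Collagen genes are named if they averaged at least 5 CPM, belong to types I, IV, V, VI, VIII, IX or XI, or passed for ethanol in either fraction; of the assembly and receptor lists, the 3 largest changes each way; of the marker lists, the first 3 genes. Promoter sequences are those of RefSeq, matched by gene symbol for 35 of the 44 genes. Alternatives were other scalings, filters, counts by strand, a test against a fold of 1.2, removal of trends of GC content and length, the dish or the number as a block, the 12 libraries of the 6 dishes without the block (added after seeing the data), and leaving out each library in turn.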

Additional observations from a re-analysis of the deposited data

Results flagged for a closer look

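In 76 groups of 6 libraries, 2 had a library that stood apart from the rest, and chance flags about 1 in 20 groups. *Col2a1*, the main chain of cartilage collagen, had 3.70 CPM in IP control replicate 4, against 3.03 to 3.25 CPM in the other IP control libraries. *Col5a2* had 627 CPM in IP ethanol replicate 3, against 679 to 704 CPM in the other IP ethanol libraries. Without IP ethanol replicate 3, 9 collagen genes rose and 1 fell with ethanol in IP, where 5244 of all 24495 genes passed (2719 higher).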

How the results depend on the processing

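Of the 33 collagen genes that differed between IP and input, 28 passed whichever single library was left out and 27 under every other alternative run except the test against a fold of 1.2. *Col10a1*, *Col26a1*, *Col4a5*, *Col7a1* and *Col9a1* did not pass without at least 1 of the libraries, nor *Col6a4* in control libraries alone. *Col9a1* also passed under none of the other alternatives. Of the 9 that passed for ethanol in IP, *Col4a5*, *Col4a6* and *Col23a1* did so throughout, with the same exception. Against a fold of 1.2, 11 genes were higher (7.80% of all genes) and 9 lower (12.4%) in IP, and 0 rose and 0 fell with ethanol in either fraction. With trends of GC content and length removed, 5 rose and 5 fell with ethanol in IP; *Col16a1* turned to -0.0894 (adjusted p = 0.0318 in edgeR) and *Col5a3* to -0.00097, and the cause was not tested. Over IP replicates 1 to 3, 3 rose and 0 fell, where 2995 of all 24495 genes passed. Over IP replicates 4 to 6, 9 rose and 0 fell, where 3714 of all genes passed. Each of these fits had fewer libraries. *Col22a1*, *Col5a1*, *Col5a3* and *Col11a2* were among the genes that did not pass over IP replicates 1 to 3. With DESeq2 size factors, the DESeq2 Wald test or edgeR's own filter, 2 fell with ethanol in IP, *Col12a1* and *Col18a1*. Of all genes, 5191, 5518 and 5412 passed there, in the same order. With the dish as a replicate block in the 12 libraries of the 6 dishes, 3 genes had a positive difference of the ethanol effect (IP minus input). In these libraries without the block, 1 did. Of all genes, 0.416% and 0.0531% passed in either direction, in the same order. With the number as a replicate block, which pairs no samples by design, 11 rose and 1 fell in IP and 6 rose and 3 fell in input. Of all 24495 genes, 5782 passed there in IP (3236 higher) and 3829 in input (1847 higher). Leaving out 1 library gave 18 to 21 genes higher and 11 to 12 lower in IP, 7 to 9 rising and 0 to 3 falling with ethanol in IP (0 without IP control replicate 5 and 3 without IP ethanol replicate 5), 5 to 7 rising and 2 to 3 falling in input, 0 to 0 for the difference, 11 to 11 pairs for IP against input and 0 to 1 pairs for ethanol in IP. Scaling to total counts moved the median of all genes in IP against input from -0.03 to -0.08. Removal of GC and length trends was not run for IP against input. Only 3 input libraries a group and 15 collagen genes below 1 CPM limit the precision.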
